A study of Mus musculus with 11 samples.

Results

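The 9 genes described here are Il4, Il13, Csf2, Arg1, Ptgdr2, Il1rl1, Il17rb, Nmur1 and Hlf, which encode cytokines, an enzyme, receptors and a transcription factor of group 2 innate lymphoid cells (ILC2s). They were taken by gene symbol from both deposited count tables. All 9 were among the 53402 genes listed in both tables, with 53801 in the Bcl11b table and 55471 in that of Tcf7. The libraries came from thymocytes sorted as negative for CD24 and for TCRβ, which removes the large pool of immature and αβ T cells of the thymus. The Bcl11b table held newborn (postnatal day 0) mice, with 2 libraries of Bcl11b D/N440K, 2 of Bcl11b +/N440K and 2 of Bcl11b +/+. N440K stands for lysine in place of asparagine at residue 440 of Bcl11b, a zinc finger factor of the T and ILC2 lineages, and D was not spelled out in the labels. The Tcf7 table held mice of postnatal day 7, with 3 Tcf7 F/F:Vav1-Cre-labelled libraries and 2 of Tcf7 +/+. Tcf7 encodes TCF-1, F stands for an allele flanked by loxP sites, and Vav1-Cre is a Cre recombinase made in blood cells. Nothing in the labels tells whether the libraries of a group came from separate animals or pools, so the p-values measure the spread between libraries.

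ILC2s are tissue-resident lymphocytes without an antigen receptor that answer epithelial alarm signals with type 2 cytokines. The alarm cytokines IL-33 and IL-25 act through receptors encoded by Il1rl1 and Il17rb, prostaglandin D2 acts through the receptor encoded by Ptgdr2 (also called CRTH2), and the neuropeptide neuromedin U acts through Nmur1. The cytokines that follow include IL-13, IL-4 and GM-CSF, the product of Csf2, and arginase 1 (Arg1) is an arginine-consuming enzyme that ILC2s hold even at rest. In the thymus, ILC2s arise beside T cells from shared progenitors, and TCF-1, Gata3 and Bcl11b take part in that step.

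Il4, Il13 and Csf2 lie in the type 2 cytokine region of mouse chromosome 11 and are read from the same strand. Il4 spans chr11:53602982-53618669, Il13 spans chr11:53631324-53634702 and Csf2 spans chr11:54247271-54249667 (GRCm38, minus strand). The promoters of these 3 genes are shown because the genes moved in different directions in the Tcf7 table. Each sequence holds the 250 bases before a RefSeq start site (GRCm38.p6, 5′ to 3′ on the minus strand). Capitals mark every match, on either strand, to 5 motifs. For factors of the Gata3 family the letters searched were AGATAA, and for those of the TCF/LEF family they were CTTTGNT. For Bcl11a they were TGACCA, for RUNX factors they were TGTGGTT, and for PAR bZIP factors, the family of Hlf, they were TTANGTAA.
Il13, chr11:53634703-53634952: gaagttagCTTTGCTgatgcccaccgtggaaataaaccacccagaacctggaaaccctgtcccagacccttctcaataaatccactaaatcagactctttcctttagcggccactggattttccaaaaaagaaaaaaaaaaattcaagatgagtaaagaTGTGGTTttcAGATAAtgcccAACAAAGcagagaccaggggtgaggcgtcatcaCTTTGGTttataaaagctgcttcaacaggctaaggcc
Il4, chr11:53618666-53618915: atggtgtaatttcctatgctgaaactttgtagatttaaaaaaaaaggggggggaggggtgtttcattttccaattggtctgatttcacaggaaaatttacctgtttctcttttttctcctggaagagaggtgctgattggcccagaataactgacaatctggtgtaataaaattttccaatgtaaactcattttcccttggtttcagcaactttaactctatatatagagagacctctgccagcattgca
Il4, second start site, chr11:53617339-53617588: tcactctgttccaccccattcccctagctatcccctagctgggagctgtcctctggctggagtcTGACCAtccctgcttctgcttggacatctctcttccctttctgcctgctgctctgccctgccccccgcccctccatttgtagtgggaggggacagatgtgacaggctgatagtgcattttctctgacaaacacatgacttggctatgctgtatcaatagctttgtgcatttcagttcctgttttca
Csf2, chr11:54249900-54250149: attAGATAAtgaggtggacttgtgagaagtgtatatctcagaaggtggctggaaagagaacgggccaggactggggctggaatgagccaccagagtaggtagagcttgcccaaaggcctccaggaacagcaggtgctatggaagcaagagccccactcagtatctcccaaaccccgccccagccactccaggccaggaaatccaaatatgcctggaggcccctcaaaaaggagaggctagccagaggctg
The Il13 promoter held 5 matches: 1 to the GATA motif at 81 bases before the start site, 1 to RUNX at 91 bases, and 3 to TCF/LEF at 242, 70 and 37 bases. In these 3 the open base N was C at 242, T at 70 and G at 37 bases. The first Il4 promoter held no match to any of the 5 motifs, the second 1 Bcl11a match, and Csf2 1 GATA match at 247 bases. The first Il4 promoter does hold ctttgta, which differs from CTTTGNT in its last base only. Other forms of the TCF/LEF motif were not searched, so the numbers of these matches depend on the letters chosen. The RefSeq start site used for Csf2 lies upstream of the gene span given above, and the 247 bases are counted from that site. Among 32851 RefSeq promoters of this length, 16% held the TCF/LEF letters, 9.99% the GATA letters, 11.4% the Bcl11a letters, 4.4% the RUNX letters and 2.06% the PAR bZIP letters. RefSeq promoters were matched for 8 of the 9 genes, with 11 start sites. Of these 11, 4 held the GATA letters, 2 the TCF/LEF letters, and 1 each the Bcl11a, RUNX and PAR bZIP letters. Matches to short letters are a description of the sequence only.

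Total counts per library were between 999381 and 1842717, so 1 read was worth 0.556 to 1.02 CPM (reads scaled to a common library size, with TMM normalization), which limits what can be seen of the scarcer genes. The edgeR filter on low counts kept 10910 genes of the Bcl11b table, with 6 of the 9 ILC2 genes among them, and 12366 genes of the Tcf7 table, with 9 of the 9. Csf2, Arg1 and Nmur1 were too scarce to be tested in the Bcl11b table. As a check of the labels, Bcl11b stood at 178 ± 36.8 CPM in D/N440K, 205 ± 28.1 CPM in +/N440K and 574 ± 96.0 CPM in +/+ (SD, n = 2 each). Tcf7 itself stood at 733 ± 100 CPM in the 3 Tcf7 F/F:Vav1-Cre-labelled libraries, against 573 ± 29.2 CPM in the 2 Tcf7 +/+ libraries. That is a log2 fold change of 0.35 (edgeR adjusted p = 0.0497), a direction against the label. Counts over the whole gene do not show whether the floxed part was removed, and the libraries are therefore named by their label. Cd24a was low in every group, at 2.22 ± 1.70 CPM in D/N440K, 1.22 ± 1.73 CPM in +/N440K and 11.3 ± 1.57 CPM in +/+, and at 2.12 ± 0.378 CPM in the Tcf7 F/F:Vav1-Cre-labelled libraries, against 10.1 ± 1.60 CPM in Tcf7 +/+. The pan-leukocyte gene Ptprc had group means of 931 to 1491 CPM.

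In the comparison of newborn D/N440K with +/+ thymocytes, Ptgdr2, Hlf and Il17rb fell and none of the 9 genes rose. The filter asked for about 8.97 CPM in 2 libraries of the Bcl11b table and 5.59 CPM in 2 of the Tcf7 table. Hlf and Il4 reached it in no D/N440K library and passed through the other genotypes, so they are left out of the counts that follow for D/N440K. Of the other 4 genes, 2 fell, where 12.4% of all tested genes were called in either direction and 6.31% lower (edgeR adjusted p under 0.05), and both groups were apart in their values for 3 of the 4, against 51% of all tested genes. In +/N440K against +/+, only Il17rb of the 6 tested genes was called, and it fell, where 10.1% of all tested genes were called and 5.3% lower. Values were apart for 3 of the 6, and for 47.8% of all tested genes. Between D/N440K and +/N440K, Ptgdr2 and Hlf fell. Of the 4 genes counted, that is 1, where 0.532% of all tested genes were called and 0.247% lower, and values were apart for 2 of the 4, against 35.4% of all. In the day 7 Tcf7 F/F:Vav1-Cre-labelled libraries, Il13, Ptgdr2, Il1rl1 and Hlf rose, Il4 and Arg1 fell, and Il17rb was not called. For these 7 genes, 6 calls stand beside 23.2% of all tested genes called, 12% higher and 11.1% lower, and values were apart for 7 of the 7, against 48.8% of all. Csf2 and Nmur1 reached the filter in no Tcf7 +/+ library: they could enter the test only by being high in the other group, and are described apart, outside these counts. The median log2 fold change of the genes counted was -0.91 in D/N440K and -0.42 in +/N440K, both against +/+, and 1.22 in the Tcf7 comparison, while that of all tested genes was 0.00, 0.00 and -0.01. In bulk RNA, fewer cells of a type and less RNA per cell cannot be told apart. Both comparisons with Bcl11b +/+ share its 2 libraries.

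**Figure D1:**
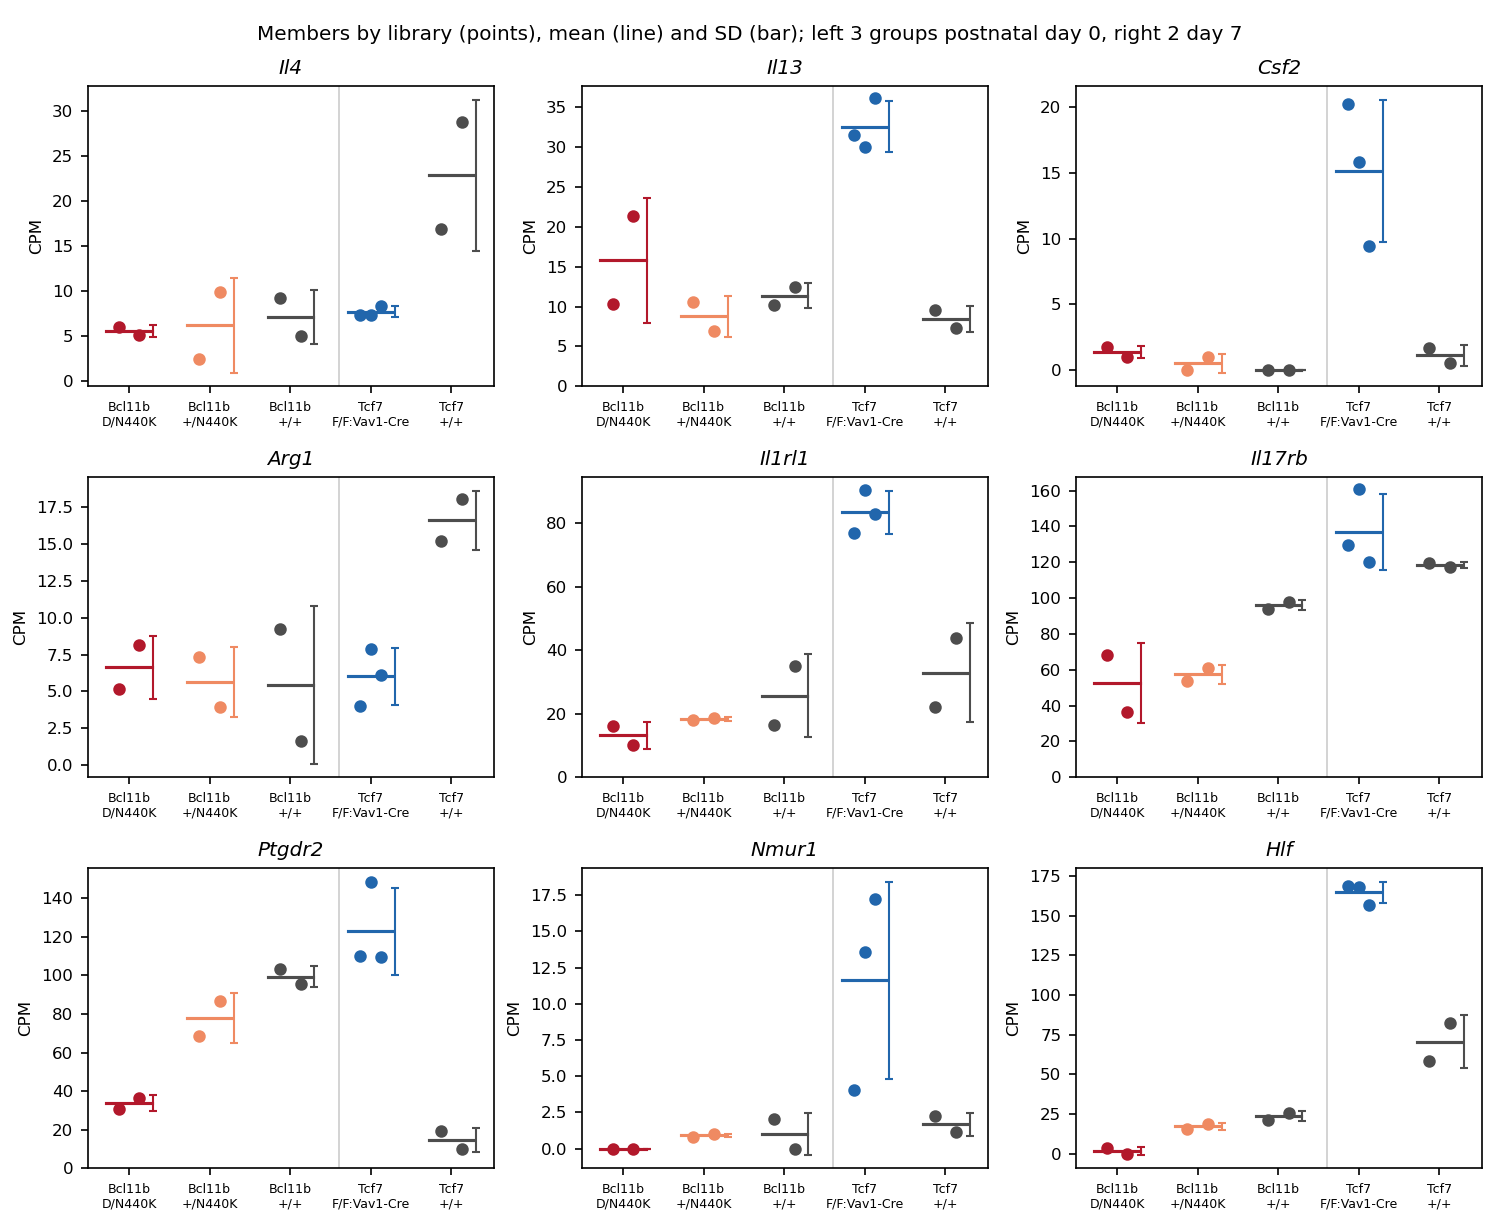
CPM of each of the 9 genes in each of the 11 libraries (points), with group mean (line) and SD (bar), newborn groups left of the grey line and day 7 groups right of it. Among the newborn genotypes Ptgdr2 and Hlf are lowest in D/N440K, and in the day 7 libraries Ptgdr2, Il13 and Csf2 are high where Il4 and Arg1 are low.

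**Figure D2:**
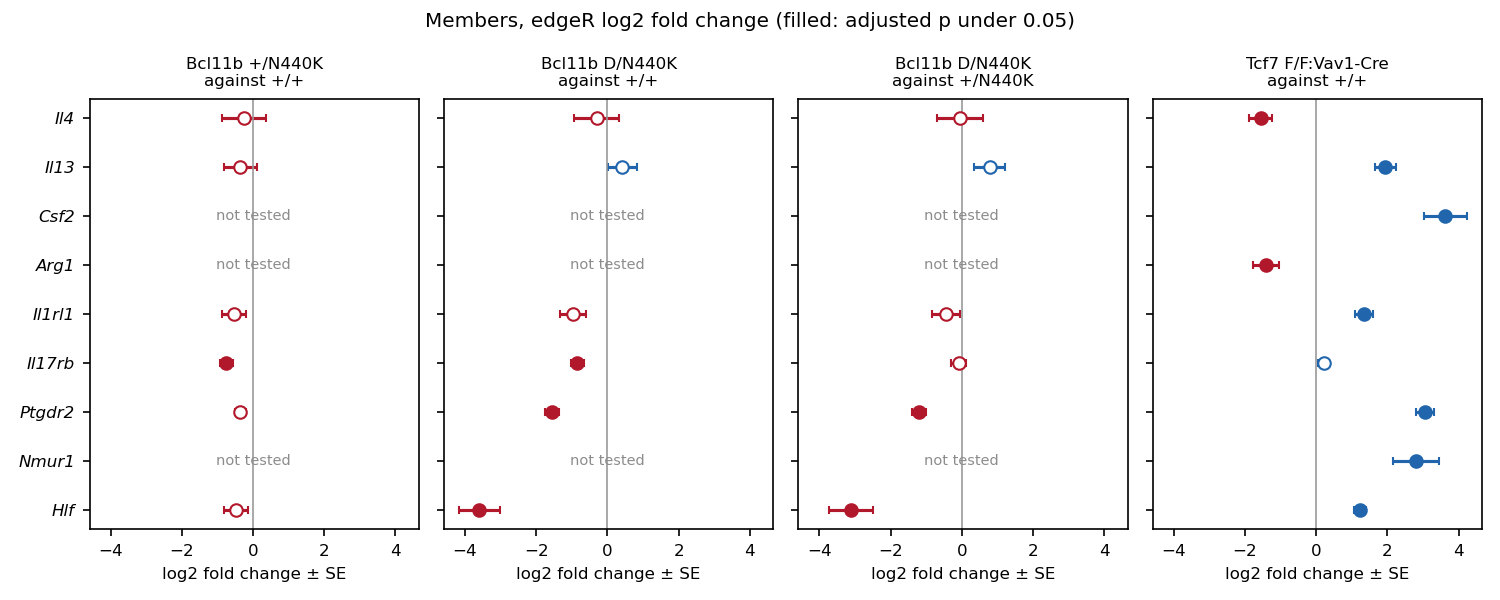
edgeR log2 fold change ± SE of the 9 genes in the 4 comparisons, filled where the adjusted p is under 0.05, blue above 0 and red below 0. The filled points lie below 0 in the 3 newborn comparisons, and in the Tcf7 comparison on both sides of 0, with Il4 and Arg1 below it.

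IL-13, a cytokine of mucus production and helminth expulsion, had its highest RNA level in the Tcf7 F/F:Vav1-Cre-labelled libraries. Il13 had 31.5, 30.0 and 36.2 CPM there, against 9.58 and 7.33 CPM in Tcf7 +/+. The 3 values all lay above both +/+ values, with a log2 fold change of 1.94 ± 0.289 (SE, edgeR adjusted p = 9.34e-05). In newborn libraries Il13 had 10.3 and 21.4 CPM in D/N440K, 10.6 and 6.91 CPM in +/N440K, and 10.2 and 12.5 CPM in +/+. These genotypes overlapped, with 1 high library in D/N440K. Their log2 differences from +/+ were 0.42 ± 0.416 in D/N440K (edgeR adjusted p = 0.6282) and -0.36 ± 0.466 in +/N440K (edgeR adjusted p = 0.7593).

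Il4, the neighbour of Il13, went the other way in the Tcf7 table. IL-4 is the cytokine of B cell switching to IgE and of type 2 helper T cells. Il4 had 7.28, 7.35 and 8.35 CPM in the Tcf7 F/F:Vav1-Cre-labelled libraries, against 16.9 and 28.8 CPM in Tcf7 +/+. The 3 values sat close together below both +/+ values, which were themselves apart, and the log2 fold change was -1.56 ± 0.33 (SE, edgeR adjusted p = 0.002132). In newborn libraries Il4 had 5.995 and 5.09 CPM in D/N440K, 2.45 and 9.87 CPM in +/N440K, and 9.21 and 4.98 CPM in +/+, which overlapped, and no newborn comparison was called. Those values rest on 3 to 10 reads per library.

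The balance of the 2 cytokines can be read within a library. Il13 gave 4.33, 4.08 and 4.33 reads per Il4 read in the Tcf7 F/F:Vav1-Cre-labelled libraries, against 0.567 and 0.255 in Tcf7 +/+. Il13 was thus the more abundant in each of the 3 libraries and Il4 in both +/+ libraries. The ratio was formed with the opposite moves of both genes known, so a test of it is no support. An exact permutation test of its log2 values gave p = 0.1, the smallest possible with 10 arrangements of these libraries. In newborn libraries the ratio was 1.71 and 4.2 in D/N440K, 4.33 and 0.7 in +/N440K, and 1.11 and 2.5 in +/+, with no separation of genotypes.

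Csf2 encodes GM-CSF, a growth factor of myeloid cells. It had 25, 28 and 17 reads in the Tcf7 F/F:Vav1-Cre-labelled libraries, against 3 and 1 reads in Tcf7 +/+. In CPM these were 20.2, 15.8 and 9.46, against 1.69 and 0.564. Since Csf2 passed the filter on low counts only through the group where it is high, its log2 fold change of 3.63 ± 0.607 (SE, edgeR adjusted p = 2.29e-04) is given as a description. The ratio of summed reads scaled by depth was 12.9, with an exact 95% interval of 4.83 to 48.8 for counting error only. Leaving out 1 library at a time moved the log2 fold change between 3.07 and 4.54, the highest without Tcf7 +/+ replicate 1. Newborn libraries had 2 and 1 Csf2 reads in D/N440K, 0 and 1 in +/N440K, and 0 and 0 in +/+. Over the +/+ group the floor was 1.38 CPM, and the exact 95% interval of 0 reads reached 1.69 CPM. Exons of Csf2 share 96 bases with the antisense gene Gm12223, which had 0 reads in the Tcf7 F/F:Vav1-Cre-labelled libraries and 1 read in Tcf7 +/+.

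The region around these genes was followed through 11 neighbours, of which 6 could be tested. Il13 starts 16.0 kb and Csf2 631 kb from the Il4 start site. In the Tcf7 comparison 2 of the 6 rose and none fell, where 12% of all tested genes rose and 11.1% fell. Sept8, a septin gene 99.4 kb away on the other side of Il4, rose, with a log2 fold change of 1.46 ± 0.136 (edgeR adjusted p = 4.93e-07), and Slc22a5, a carnitine transporter, rose by 0.76 ± 0.265 (edgeR adjusted p = 0.04586). Rad50, the DNA repair gene that carries the locus control region of the type 2 cytokines, had a log2 fold change of -0.05 ± 0.155 (edgeR adjusted p = 0.8709). In D/N440K against +/+, 1 of the 6 rose and 1 fell, where 12.4% of all tested genes were called. Sept8 rose by 0.56 ± 0.108 (edgeR adjusted p = 2.02e-04), and Pdlim4 fell by 4.11 ± 0.393 (edgeR adjusted p = 1.20e-10). The same 2 genes were the called ones in +/N440K, with log2 fold changes of 0.40 and -3.60. Il5, the ILC2 cytokine of eosinophils, gave 0, 2 and 4 reads in the Tcf7 F/F:Vav1-Cre-labelled libraries, 1 read in all newborn libraries together, and 0 in Tcf7 +/+.

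**Figure D3:**
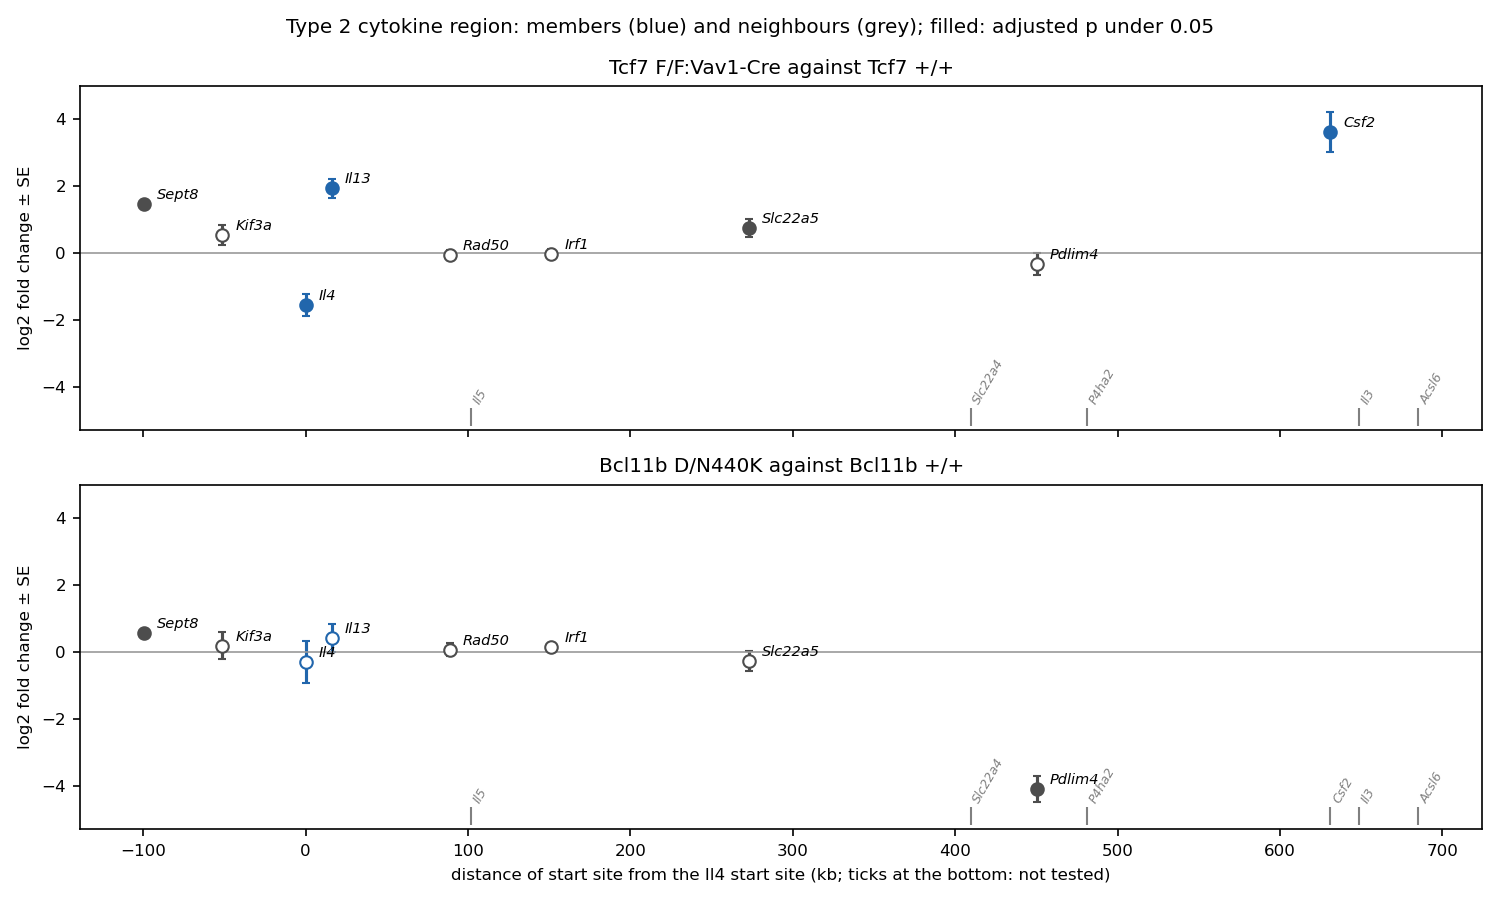
edgeR log2 fold change ± SE against the distance of each start site from that of Il4 (kb), with Il4, Il13 and Csf2 in blue, neighbours in grey, filled points called, and untested genes as ticks. In the upper panel (Tcf7 F/F:Vav1-Cre against Tcf7 +/+) Il13 and Csf2 lie above 0 and Il4 below it; in the lower panel (Bcl11b D/N440K against Bcl11b +/+) Il4 and Il13 are open points near 0.

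Arg1 (chr10:24915221-24927484) fell beside Il4 in the Tcf7 table. It had 4.04, 7.91 and 6.12 CPM in the Tcf7 F/F:Vav1-Cre-labelled libraries, against 15.2 and 18.0 CPM in Tcf7 +/+. All 3 values lay under both +/+ values, with a log2 fold change of -1.41 ± 0.357 (SE, edgeR adjusted p = 0.00773); under DESeq2 the adjusted p was 0.05265. Newborn libraries had 6 and 8 Arg1 reads in D/N440K, 9 and 4 in +/N440K, and 9 and 2 in +/+. These overlapped, and the ratio of D/N440K to +/+ was 1.29 (exact 95% interval 0.545 to 3.14). Of 10 tested genes of arginine and polyamine metabolism in the Tcf7 comparison, 7 were not called, where 23.2% of all tested genes were called. Odc1 rose, with a log2 fold change of 1.02. Slc7a1, an arginine transporter, and Srm, the spermidine synthase, fell by 0.64 and 0.90. Slc7a1 rose in both newborn mutants against +/+, with log2 fold changes of 0.33 in D/N440K and 0.40 in +/N440K. Arg1 is also made by macrophages. Of 12 tested macrophage and monocyte markers in the Tcf7 comparison, 4 rose, 1 fell and 7 were not called. Of all tested genes 12% rose and 11.1% fell there. Lyz2, Csf1r, Cd14 and Itgam rose, Mrc1 fell by 1.56, and the median log2 fold change of the 12 was 0.15. The summed CPM of all 14 was 1434 to 1612 in the Tcf7 F/F:Vav1-Cre-labelled libraries, against 706 to 1245 in Tcf7 +/+, with Csf1r and Lyz2 the most abundant. The part of such cells in the Arg1 values was not tested.

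In newborn libraries Ptgdr2 (chr19:10937160-10942511) had 30.8 and 36.6 CPM in D/N440K, 68.6 and 86.9 CPM in +/N440K, and 103 and 95.5 CPM in +/+. D/N440K was lowest and +/+ highest, without overlap. Any 2 of these genotypes were also apart for 35.4% to 51% of all tested genes. Against +/+ the log2 fold change was -1.56 ± 0.19 in D/N440K (SE, edgeR adjusted p = 4.16e-08) and -0.36 ± 0.157 in +/N440K (edgeR adjusted p = 0.1562). D/N440K also fell below +/N440K, with a log2 fold change of -1.20 ± 0.199 (edgeR adjusted p = 8.35e-04; 0.1515 under DESeq2).

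In the Tcf7 table Ptgdr2 moved the other way. It had 110, 149 and 109.6 CPM in the Tcf7 F/F:Vav1-Cre-labelled libraries, against 19.2 and 10.2 CPM in Tcf7 +/+. The 3 values lay far above both +/+ values, and the log2 fold change was 3.06 ± 0.257 (SE, edgeR adjusted p = 1.52e-07). Of the 2644 exonic bases of Ptgdr2, 1031 are also exonic in Ccdc86, a nucleolar protein gene on the other strand, and the strand of counting is not given in the sources used here. Ccdc86 moved the same way: it fell in D/N440K against +/+ with a log2 fold change of -0.61 ± 0.192 (edgeR adjusted p = 0.02663), rose in the Tcf7 comparison with 1.50 ± 0.175 (edgeR adjusted p = 7.10e-06), and was at 0.01 ± 0.173 in +/N440K against +/+. The part of shared reads in the Ptgdr2 values was not tested.

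Il1rl1 (chr1:40429570-40465415), the IL-33 receptor, rose in the Tcf7 table. It had 76.8, 90.4 and 82.9 CPM in the Tcf7 F/F:Vav1-Cre-labelled libraries, against 22.0 and 44.0 CPM in Tcf7 +/+. The groups were apart although the +/+ pair was wide, and the log2 fold change was 1.34 ± 0.242 (SE, edgeR adjusted p = 5.62e-04). It was 1.93 without Tcf7 +/+ replicate 2 and 0.93 without Tcf7 +/+ replicate 1. In newborn libraries Il1rl1 had 16.3 and 10.2 CPM in D/N440K, 18.0 and 18.8 CPM in +/N440K, and 16.4 and 34.9 CPM in +/+. Here 1 of the +/+ libraries was level with the mutants, and neither D/N440K (log2 fold change -0.97 ± 0.356, edgeR adjusted p = 0.06895) nor +/N440K (-0.53 ± 0.33, edgeR adjusted p = 0.4028) was called against +/+. Without Bcl11b +/+ replicate 1 the D/N440K value was -1.37 with an adjusted p of 0.005862, and without +/+ replicate 2 it was -0.28.

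Il17rb (chr14:29996135-30008896), the IL-25 receptor chain, was the only one of the 6 tested genes called in +/N440K and the only one of the 9 not called in the Tcf7 table. It had 68.5 and 36.6 CPM in D/N440K, 53.9 and 61.2 CPM in +/N440K, and 94.1 and 98.0 CPM in +/+. Both mutant genotypes lay below +/+, with the D/N440K pair wide and spanning the +/N440K values. The log2 fold change against +/+ was -0.75 ± 0.183 in +/N440K (SE, edgeR adjusted p = 0.004062; 0.2238 under DESeq2) and -0.84 ± 0.187 in D/N440K (edgeR adjusted p = 0.001204; 0.08272 under DESeq2, and 0.1299 without D/N440K replicate 2, where the value was -0.49). Between D/N440K and +/N440K the value was -0.09 ± 0.208 (edgeR adjusted p = 0.9813). At day 7 Il17rb had 129, 161 and 120.2 CPM in the Tcf7 F/F:Vav1-Cre-labelled libraries, against 119 and 117 CPM in Tcf7 +/+, a log2 difference of 0.21 ± 0.158 (edgeR adjusted p = 0.3697). Its exons share 141 bases with Actr8 on the other strand, which was not called in any of the 4 comparisons.

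Nmur1 (chr1:86386303-86426228), the receptor of neuromedin U and in mice a marker of ILC2s, was near the limit of detection except in 1 group. It had 4.04, 13.6 and 17.3 CPM in the Tcf7 F/F:Vav1-Cre-labelled libraries, against 2.25 and 1.13 CPM in Tcf7 +/+. Replicate 1 was nearest to +/+. Nmur1 passed the filter on low counts only through the group where it is high, so its log2 fold change of 2.80 ± 0.649 (SE, edgeR adjusted p = 0.003906) is given as a description. With no filter on low counts the adjusted p was 0.0602, and without replicate 2 or replicate 3 of that group Nmur1 did not enter the test. Newborn libraries had 0 and 0 Nmur1 reads in D/N440K, 1 and 1 in +/N440K, and 2 and 0 in +/+. At this depth no difference between newborn genotypes was detectable.

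Genes that pass the signals of these receptors and cytokines on were read as 2 lists. Of 14 tested genes of IL-33 and IL-25 signalling, 3 rose and none fell in the Tcf7 F/F:Vav1-Cre-labelled libraries. That share is close to the 23.2% of all tested genes called there. The 3 were Irak2 (log2 fold change 1.46), the adaptor Myd88 (0.94) and Nfkb1 (0.66), and the median of the 14 was 0.36. In D/N440K against +/+ only Nfkb1 of the 14 was called, with 0.28, and in +/N440K edgeR called none, against 12.4% and 10.1% of all tested genes. Of 11 tested genes of IL-4, IL-13, IL-5 and GM-CSF signalling, 6 rose in the Tcf7 comparison, where 12% of all tested genes did. They were Socs1 (1.36), Csf2ra (1.21), Il4ra (1.14), Il13ra1 (0.78), Csf2rb (0.76) and Tyk2 (0.66). Jak1 alone fell, by 0.44, where 11.1% of all tested genes fell. The shared IL-4 and IL-13 receptor chain Il4ra had 73.2 ± 2.99 CPM in D/N440K, 102 ± 1.52 CPM in +/N440K and 141 ± 3.96 CPM in +/+ (SD, n = 2 each), and it fell in both mutants (edgeR adjusted p = 2.64e-06 and 0.01323). Jak3 also fell in both, by 0.49 and 0.40, and Il13ra1 rose in D/N440K, with a log2 fold change of 2.13.

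Hlf (chr11:90336536-90390895), a PAR bZIP transcription factor of blood stem cells and of clock output, was the lowest relative to +/+ of the 6 genes tested in D/N440K. It had 3.43 and 0 CPM in D/N440K, which were 4 and 0 reads, 15.5 and 18.8 CPM in +/N440K, and 21.5 and 25.7 CPM in +/+. The 3 genotypes did not overlap. Hlf reached the filter on low counts in no D/N440K library and passed only through the genotypes where it is higher. Its log2 fold changes in D/N440K are therefore given as a description. They were -3.60 ± 0.57 against +/+ (SE, edgeR adjusted p = 5.78e-06) and -3.12 ± 0.616 against +/N440K (edgeR adjusted p = 0.00506). In +/N440K against +/+ the value was -0.48 ± 0.34 (edgeR adjusted p = 0.4796). By summed reads the ratio of D/N440K to +/+ was 0.0781, with an exact 95% interval of 0.0205 to 0.212 for counting error only. The values rest on 4 reads of D/N440K replicate 1: without replicate 2, which had 0 reads, the log2 fold change against +/+ was -2.76 (edgeR adjusted p = 3.53e-04). Without D/N440K replicate 2 the difference from +/N440K was no longer called, at -2.28 with an adjusted p of 0.09787, and DESeq2 gave 0.3308.

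In the Tcf7 table Hlf had 169.0, 168 and 157 CPM in the Tcf7 F/F:Vav1-Cre-labelled libraries, against 58.6 and 82.3 CPM in Tcf7 +/+. The 3 values lay well above both +/+ values, with a log2 fold change of 1.22 ± 0.167 (SE, edgeR adjusted p = 3.94e-05). Of 10 tested clock and PAR bZIP genes, 9 rose there and none fell, where 12% of all tested genes rose and 11.1% fell. The median of the 10 was 0.93. Nr1d1, the clock repressor REV-ERBα, stood at 261 ± 6.55 CPM (SD, n = 3) against 39.2 ± 4.38 CPM (n = 2), a log2 fold change of 2.74 ± 0.16 (edgeR adjusted p = 2.03e-09). The others were Per3 (1.72), Nr1d2 (1.06), the PAR bZIP relatives Dbp (1.03) and Tef (1.01), Per1 (0.84), Nfil3 (0.76), Arntl (0.66) and Bhlhe40 (0.49). In D/N440K against +/+, 1 of the 10 rose and 3 fell, where 12.4% of all tested genes were called. Bhlhe40 (0.70) rose, Arntl (-0.85), Nr1d1 (-0.76) and Per1 (-0.40) fell, while Dbp and Tef were not called. In +/N440K Arntl alone was called, at -0.69. The labels give no hour of collection, and its part in these values was not tested.

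**Figure D4:**
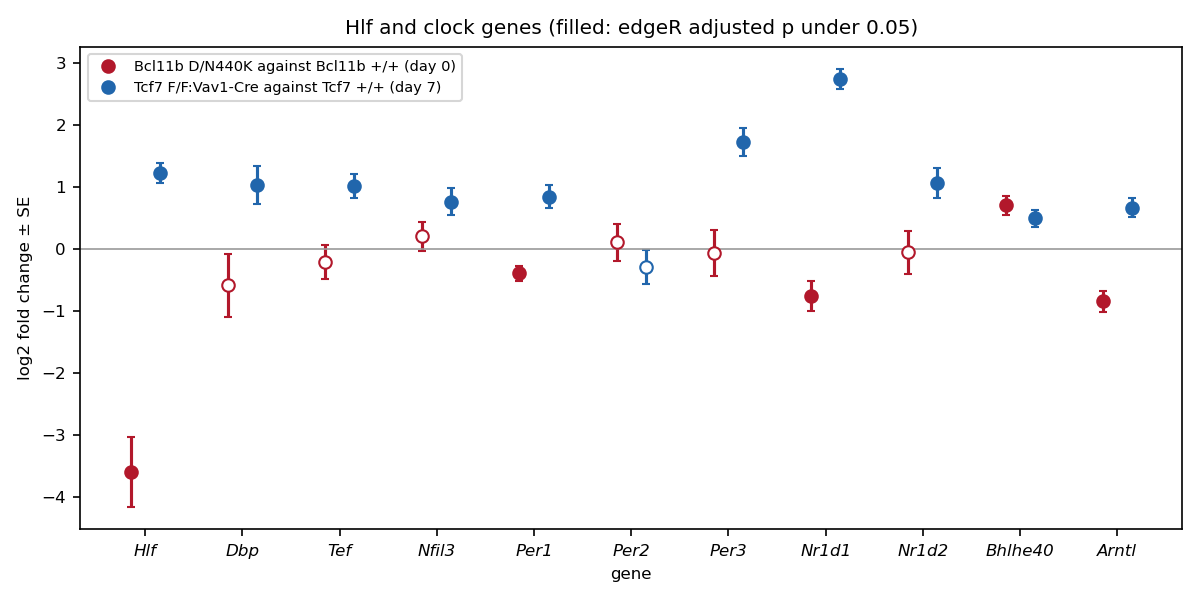
edgeR log2 fold change ± SE of Hlf and 10 clock genes in Bcl11b D/N440K against Bcl11b +/+ (red, day 0) and in Tcf7 F/F:Vav1-Cre against Tcf7 +/+ (blue, day 7), filled where called. All blue points but Per2 are filled above 0, and the red Hlf point at -3.60 lies far below the other red points.

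Per kilobase of exon, which allows genes to be compared, Ptgdr2 and Il17rb led in newborn +/+ thymocytes at 37.6 ± 2.10 and 25.9 ± 0.734 CPM per kb (SD, n = 2). Il13 (9.41 ± 1.31), Il4 (5.78 ± 2.44), Il1rl1 (3.72 ± 1.898), Hlf (3.53 ± 0.450) and Arg1 (2.44 ± 2.40) followed, and the mean ± SD ranges of neighbours in this order overlapped from Il13 down. In D/N440K, Il17rb (14.2 ± 6.08), Il13 (13.1 ± 6.51) and Ptgdr2 (12.8 ± 1.55) were level within their SD and Hlf was at 0.256 ± 0.363 CPM per kb. In +/N440K the first 2 were Ptgdr2 (29.4 ± 4.90) and Il17rb (15.5 ± 1.40). At day 7, Ptgdr2 (46.4 ± 8.48 CPM per kb, n = 3) and Il17rb (36.9 ± 5.78) led in the Tcf7 F/F:Vav1-Cre-labelled libraries, ahead of Il13 (27.0 ± 2.68) and Hlf (24.7 ± 1.02), whose SDs touch. In Tcf7 +/+ the order was Il17rb (31.9 ± 0.423, n = 2), Il4 (18.6 ± 6.82), Hlf (10.5 ± 2.51), Arg1 (7.46 ± 0.896), Il13 (7.02 ± 1.32), Ptgdr2 (5.54 ± 2.41) and Il1rl1 (4.78 ± 2.26), and the mean ± SD ranges of the last 4 overlapped from neighbour to neighbour.

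A wider set of 67 other ILC2 genes, in 4 lists, moved in both directions. In the Tcf7 comparison 23 of 55 tested genes rose and 9 fell, where 12% and 11.1% of all tested genes did, with a median log2 fold change of 0.38. Among effectors, Lif, a cytokine of the IL-6 family, rose by 3.36 on the log2 scale, to 156 ± 33.7 CPM (SD, n = 3) in the Tcf7 F/F:Vav1-Cre-labelled libraries, against 15.2 ± 0.800 CPM (n = 2) in Tcf7 +/+. The lipid enzymes Dgat2 (1.68) and Dgat1 (0.81) rose too. Of the receptors, Il2ra, the high-affinity IL-2 receptor chain, rose to 330 ± 22.6 CPM, against 48.2 ± 4.39 CPM in +/+ (log2 fold change 2.77, edgeR adjusted p = 1.64e-09). Cysltr1 (2.67) and Ltb4r1 (2.02), both leukotriene receptors, Kit (2.55), Cd200r1 (1.17), Il4ra (1.14), Tnfrsf18 (0.93), Cxcr6 (0.86), Tnfrsf25 (0.83), Thy1 (0.75) and Ramp1 (0.71) also rose. S1pr1 (-2.47), the exit receptor of lymphocytes, Ccr8 (-1.92), Ccr9 (-1.03), Il9r (-0.98) and Il18rap (-0.40) fell. Of the transcription factors, Rara (1.09), Zbtb7b (1.06), Tox (0.91), Rora (0.81), Nfil3 (0.76), Id2 (0.70), Maf (0.60), Mxd4 (0.37) and Tcf7 rose, and Zbtb16 (-1.99), Lef1 (-1.09), Gfi1 (-0.82) and Bmi1 (-0.81) fell. Gata3, the master factor of ILC2s, was at 216 CPM against 189 CPM and was not called (log2 fold change 0.19, edgeR adjusted p = 0.3831).

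In D/N440K against +/+, 10 of 51 tested genes of these lists rose and 13 fell, where 12.4% of all tested genes were called in either direction, with a median of -0.01. Lif (2.06), Cd200r1 (1.24), Il18rap (1.21), Zbtb7b (1.15), Id2 (1.00), Il18r1 (0.97), Ptger4 (0.79), Ccl5 (0.66), Ccr8 (0.53) and Il2rb (0.46) rose. Ccr9, the gut and thymus homing receptor, was at 62.5 ± 12.1 CPM in D/N440K, 86.1 ± 15.6 CPM in +/N440K and 535 ± 52.7 CPM in +/+ (SD, n = 2 each), and fell by 3.07 in D/N440K (edgeR adjusted p = 2.38e-21). Ccr4 (-2.02), Lef1 (-1.85), Maf (-1.18), Gfi1 (-1.13), Ramp1 (-1.12), Il4ra (-0.95), Tnfrsf25 (-0.67), Zbtb16 (-0.55), Stat5b (-0.45), Tox (-0.39), Tcf7 (-0.37) and Ets1 (-0.31) fell as well. In +/N440K against +/+, 10 of the 51 rose and 12 fell, with a median of -0.03. Of all tested genes 10.1% were called there and 5.3% lower. Those that rose were Lif (2.06), Zbtb7b (1.08), Ly6a (1.04), Il18rap (0.95), Il18r1 (0.86), Id2 (0.81), Ptger4 (0.65), Ccl5 (0.60), Il2rb (0.43) and S1pr1 (0.40). Those that fell were Ccr9 (-2.61), Lef1 (-1.79), Ramp1 (-1.72), Ccr4 (-1.69), Gfi1 (-0.89), Maf (-0.76), Zbtb16 (-0.75), Tox (-0.48), Il4ra (-0.47), Stat5b (-0.39), Tcf7 (-0.39) and Ets1 (-0.23). Gata3 was at 226 CPM in D/N440K, 222.5 CPM in +/N440K and 266 CPM in +/+ and was not called. Between D/N440K and +/N440K, 2 of the 51 genes fell, where 0.532% of all tested genes were called and 0.247% lower. Icos, a costimulator that sustains ILC2s, had 26.0 ± 0.781 CPM against 54.8 ± 10.5 CPM (edgeR adjusted p = 0.02125). Tnfrsf25, the receptor of TL1A, had 111 ± 2.93 CPM against 165 ± 27.8 CPM (edgeR adjusted p = 0.04135).

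Several of the 9 genes are also made by other cells of the thymus, and markers of those cells were summed. Mast cells and basophils share Il4, Il13, Csf2, Il1rl1 and Ptgdr2 with ILC2s. Their 13 markers summed to 185, 197 and 170.2 CPM in the Tcf7 F/F:Vav1-Cre-labelled libraries, with reads for 13 of 13, against 89.6 and 87.4 CPM in Tcf7 +/+, with reads for 9 of 13 and Mcpt4, Prss34, Tpsab1 and Tpsb2 at 0. Of 8 tested markers 5 rose and 3 were not called, where 12% of all tested genes rose. Slc18a2 and Gata2 had the highest mean. Slc18a2 went against the sum, with 28.9 to 38.4 CPM in the Tcf7 F/F:Vav1-Cre-labelled libraries, against 42.3 CPM in both Tcf7 +/+ libraries. All 3 sums lay above both +/+ sums. Hdc and Gata2 were highest in replicate 3, at 47.9 and 60.1 CPM, Cpa3 in replicate 1, at 28.3 CPM, and Mcpt4 had reads in replicate 1 alone and Prss34 in replicate 2 alone. The part of mast cells and basophils in the values of the 9 genes was not tested. In the newborn table the same markers summed to 20.6 to 45.8 CPM in D/N440K, 22.9 to 25.7 CPM in +/N440K and 23.3 to 44.0 CPM in +/+, with 7 or 8 of 13 at 0.

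**Figure D5:**
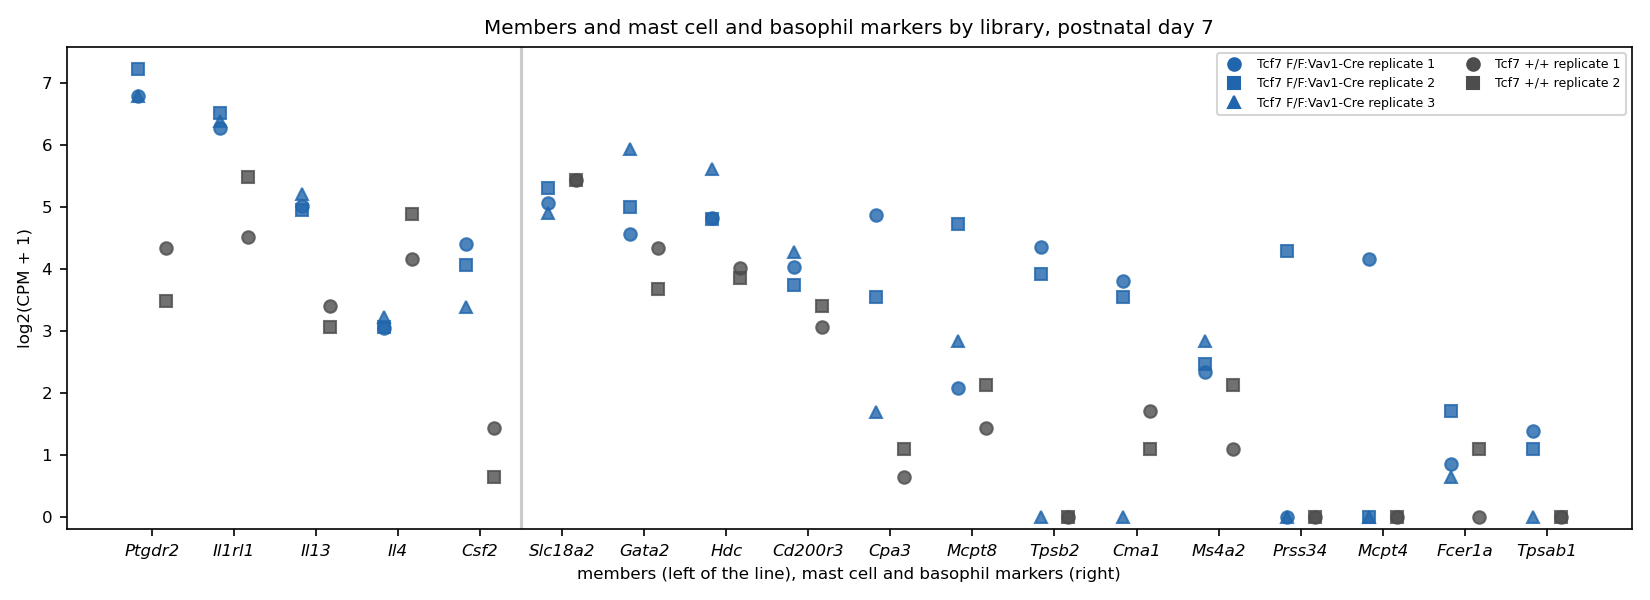
log2(CPM + 1) of the 5 genes that mast cells and basophils also make (left of the line) and of all 13 of their markers (right, by mean level) in the 5 day 7 libraries, blue for Tcf7 F/F:Vav1-Cre and grey for Tcf7 +/+, with a symbol per replicate. Ptgdr2, Il1rl1, Il13 and Csf2 lie higher in the blue libraries than in the grey ones, as do Hdc, Gata2, Cpa3 and other markers. Il4 and the marker Slc18a2 lie lower.

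The 8 eosinophil markers summed to 20.2 to 23.9 CPM in the Tcf7 F/F:Vav1-Cre-labelled libraries, against 7.89 to 8.45 CPM in Tcf7 +/+. Most of that was Siglecf, and the granule genes Epx and Prg3 were at 0 in both groups. αβ T and NKT cells, another source of Il4, bear TCRβ, and the sort would remove them. Their 11 markers summed to 652 to 677 CPM in the Tcf7 F/F:Vav1-Cre-labelled libraries, against 1131 to 1146 CPM in Tcf7 +/+. That is the same side as Il4. Of the 11, all tested there, 9 fell, 1 rose and 1 was not called, where 11.1% of all tested genes fell and 12% rose. Cd4, the marker of highest mean, went against the sum. It had 336 to 370 CPM in the Tcf7 F/F:Vav1-Cre-labelled libraries, against 171 to 232 CPM in Tcf7 +/+. In newborns the 11 markers summed to 548 to 588 CPM in D/N440K and 678 to 694 CPM in +/N440K. The +/+ libraries had 1132 to 1194 CPM, so that the mutants lay on the same side as for Ptgdr2, Il17rb and Hlf. The 10 NK and ILC1 markers ran the other way in newborns, with 1280 to 1323 CPM in D/N440K, 1013 to 1139 CPM in +/N440K and 472 to 508 CPM in +/+, and were at 419 to 496 CPM in the Tcf7 F/F:Vav1-Cre-labelled libraries, against 570 to 711 CPM in Tcf7 +/+. The 9 γδ T markers, led by Cd163l1, summed to 2247 to 2277 CPM in D/N440K, 2454 to 2483 CPM in +/N440K and 3427 to 3913 CPM in +/+. At day 7 they overlapped, at 2010 to 2398 CPM against 2101 to 2501 CPM. The 11 progenitor markers, a group in which Hlf is also made, summed to 538 to 609.8 CPM in the Tcf7 F/F:Vav1-Cre-labelled libraries, against 192 to 237 CPM in Tcf7 +/+, most of it Kit, and to 216 to 218 CPM in D/N440K, 182 to 206 CPM in +/N440K and 208 to 221 CPM in +/+. The part of these cells in the values of the 9 genes was not tested.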

How the data were processed

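RNA of sorted mouse thymocytes was measured in 11 libraries. A total-RNA method adapted from RamDA-seq, per the labels' protocols, primed cDNA with random and oligo(dT) primers, followed by tagmentation and PCR. The submitters' processing notes name STAR 2.7.3a, HTSeq 0.11.2, edgeR, Picard 2.21.1, SAMtools 1.9 and fastp 0.20.0, with mm10 (GRCm38). The annotation release and the strand of counting are not given in the sources used here. The count tables hold the raw read counts per Ensembl gene that the authors deposited. The CPM tables hold normalised values that the authors made with TMM scaling, and multiplied by the effective library size, 100% of them gave whole reads within 0.001 for 10910 and 12366 genes. Gene symbols, spans and exon lengths came from GENCODE M21, and promoters from RefSeq.

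Each table was filtered on its own with filterByExpr (minimum count 10), scaled by TMM and fitted with edgeR 4.0.16 (quasi-likelihood, R 4.3.3, limma 3.58.1), with a coefficient per group and 3 residual degrees of freedom. A gene was called at a Benjamini-Hochberg adjusted p under 0.05 over all tested genes of the table, two-sided. Whether the D/N440K effect differed from that in the Tcf7 table was tested with edgeR over all 11 libraries at once. Figures used Python 3.11.15, matplotlib 3.10.9 and numpy 2.4.6. All groups were taken from the sample titles. Intervals are exact, at 95%, and are made from summed reads, so they cover counting error only and not the spread between libraries. Reads carry no molecular identifiers, which the intervals do not allow for. A floor is 3 reads over the group.

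The 9 genes and the 16 other gene lists were chosen with earlier results of these data known. All 9 genes are named in every comparison. Of the other lists, called genes are named (in signalling, locus, clock and arginine lists up to 8 by p), and marker lists are given by their sums. The clock list of the Tcf7 comparison departs from this limit, with all 9 called genes named. Genes correlated with each of the 9, part of the same rule, are not given, since there were only 5 or 6 libraries a table. Alternatives were RLE or no scaling beyond library totals, no filter or a stricter one (CPM of 5 in 2 libraries), DESeq2 1.42.0, leaving out each library in turn, fitting only the groups compared, and a replicate block. The scripts were tested on simulated data. Reads recovered from the authors' CPM were an alternative added after seeing the data.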

Additional observations from a re-analysis of the deposited data

Results flagged for a closer look

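For 4 of the 9 genes the D/N440K effect (against Bcl11b +/+) differed from the Tcf7 F/F:Vav1-Cre effect (against Tcf7 +/+). This was 1 edgeR model over all 11 libraries, in which 11.5% of 12249 tested genes differed. Hlf, Il4, Arg1, Csf2 and Nmur1 reached the newborn filter on low counts in no D/N440K library. The 4 are therefore not set against that share. The difference of the log2 fold changes was -4.63 ± 0.336 for Ptgdr2 (SE, edgeR adjusted p = 4.13e-10). For Hlf, as a description, it was -4.84 ± 0.566 (edgeR adjusted p = 6.82e-07). Both genes fell in D/N440K and rose in the Tcf7 F/F:Vav1-Cre-labelled libraries. It was -2.31 ± 0.466 for Il1rl1 (edgeR adjusted p = 0.001139), which was called only in the Tcf7 table, and -1.06 ± 0.276 for Il17rb (edgeR adjusted p = 0.0115), which was called only in newborn libraries. Il13 (-1.50, edgeR adjusted p = 0.06023), Il4 (1.25, edgeR adjusted p = 0.3115) and Arg1 (1.76, edgeR adjusted p = 0.153) were not called, and Csf2 and Nmur1 had a group with 0 reads. Single libraries decided some of these calls. Il1rl1 (adjusted p = 0.1) and Il17rb (0.06571) lost theirs without Bcl11b +/+ replicate 2, as did Il17rb (0.1576) without D/N440K replicate 2, all in edgeR. Il13 gained one without D/N440K replicate 2 (edgeR adjusted p = 0.0238) or Tcf7 +/+ replicate 1 (0.02622), and Arg1 without Bcl11b +/+ replicate 1 (0.03712). Age and count table cannot be told apart from the gene that was changed.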

How the results depend on the processing

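Depth limits what can be said of Csf2, Nmur1 and Arg1 in newborn libraries, and +/+ replicates of the Tcf7 table differed more than other pairs (chi-square per degree of freedom 4.94, against 1.14 to 2.16). Of the log2 fold changes of the 9 genes under the alternatives, 311 kept their side of the threshold and 8 lost and 1 gained the call, and no called value reversed, while uncalled newborn values of Il4, Il13, Il1rl1 and Il17rb changed sign without single libraries; a cause was not tested. With DESeq2, 357 genes were called in +/N440K and 528 in D/N440K, both against +/+ (1101 and 1353 with edgeR), and 4 between D/N440K and +/N440K (58 with edgeR); 0 of the 9 genes were then called in +/N440K and 0 between the mutants, where edgeR called 1 and 2. Unadjusted edgeR p-values under 0.05 were those of Il17rb (2.13e-04) and Ptgdr2 (0.02541) in +/N440K against +/+, and of Ptgdr2 (4.94e-07) and Hlf (7.21e-06) between the mutants. Il17rb in D/N440K had an adjusted p of 0.08272 with DESeq2. Without a filter on low counts, 91 genes were called between D/N440K and +/N440K and 1606 in the Tcf7 comparison (2863 with it). Leaving out 1 library gave 726 (without +/+ replicate 1) to 945 calls in +/N440K against +/+, 25 (without D/N440K replicate 1) and 35 (without replicate 2) to 63 between the mutants, and 1700 (without F/F:Vav1-Cre replicate 3) to 4612 (without +/+ replicate 1) in the Tcf7 comparison. The 9 genes' calls between the mutants were 1 to 2, and their called differences between tables were 2 (without Bcl11b +/+ replicate 2, Hlf and Ptgdr2) to 5, in place of 4. Untested newborn genes, fitted with no filter, had adjusted p from 0.7401 up. With a replicate block, although deviations of same-numbered libraries correlated only between -0.11 and 0.07, 37 genes were called between D/N440K and +/N440K, and no call among the 9 genes changed.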
